A study of Mus musculus with 3 samples.

Results

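Potassium, sodium and calcium channel subunits were examined in mouse cardiac fibroblasts and in the induced cardiomyocytes (iCMs) made from them. The members were taken by name, as the protein-coding genes whose symbols begin with Kcn, with Scn or Hcn followed by a digit, or with Cacn, which gave 138 of the 54532 genes in the tables. MICFs were cardiac fibroblasts from adult Myh6-mCherry mice, taken 5 days after myocardial infarction surgery and cultured without virus. GMTMS-iCMs were MICFs transduced with Gata4, Mef2c, Tbx5, Myocd and Sall4, and GMTMM-iCMs were MICFs transduced with Gata4, Mef2c, Tbx5, Myocd and Mesp1, both from doxycycline-dependent lentiviral vectors with 1 μg/ml doxycycline in the medium. After 4 weeks the transduced cells were sorted for mCherry, which is driven by the Myh6 promoter, and 5 sorted samples were mixed into 1 library per cocktail. MICFs were harvested after the same time without this sort. Sorting, mixing of samples, virus, doxycycline, factors and any difference in medium therefore cannot be told apart between MICFs and the transduced libraries. Each condition was 1 library, so no difference has a replicate check and no test across replicates was possible.

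Ion channels set the electrical behaviour of a cell. In a heart muscle cell, sodium channels start the action potential, L-type calcium channels hold it and trigger contraction, and several potassium channels end it and keep the resting voltage. Cells of the sinoatrial node also carry HCN channels, which open on hyperpolarization and drive the spontaneous beat. Most channels are complexes of pore subunits, which conduct the ion, and auxiliary subunits, which set the gating and the amount of channel at the membrane.

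Library totals were 11861773 counts (MICFs), 10624118 (GMTMS-iCMs) and, as labelled, 11904484 (GMTMM). Sall4 had 0, 1190 and 1060 counts and Mesp1 had 0 in every library, so the factors counted in the library labelled GMTMM go against its label. Of 10 cardiomyocyte markers, Myh6, Ryr2, Actn2, Myl7, Nppa and Pln had 0 counts in MICFs, and the summed FPKM (fragments per kilobase and library size) of the list was 1.29, 1322 and 494 in the order MICFs, GMTMS-iCMs, library labelled GMTMM. Pln was barely counted in any library, with 0, 2 and 0 counts in this order. Macrophage markers were abundant in all 3 libraries, with sums of 3717, 9058.5 and 4085 FPKM in the same order, and 9 of the 10 were over 2-fold higher in GMTMS-iCMs than in MICFs. The sums were 1753, 263 and 3216 for 10 fibroblast markers, 472, 13.8 and 351 for 8 endothelial markers, 124, 108 and 238 for 8 smooth muscle and mural markers, and 12.3, 1.63 and 7.61 for 8 neural and glial markers, of which Rbfox3 and Snap25 were at 0 throughout. In such bulk libraries, fewer cells of a type and less RNA per cell cannot be told apart.

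**Figure D1:**
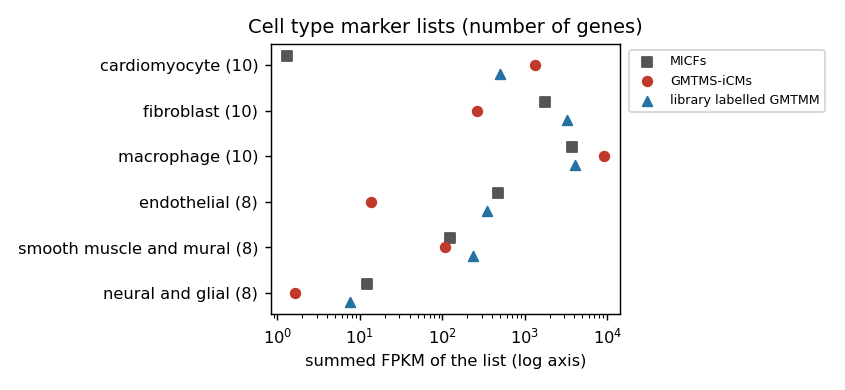
Summed FPKM of each cell type marker list (log axis) with squares for MICFs, circles for GMTMS-iCMs and triangles for the library labelled GMTMM, with the number of genes of each list beside its name. GMTMS-iCMs hold the highest cardiomyocyte and macrophage sums and the lowest fibroblast and endothelial sums, 263 and 13.8 FPKM.

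Channel subunits summed to 10848, 7821 and 11331 counts in the same order of libraries. Of the 138 members, 62 reached 20 counts in at least 1 library, 29 had a highest count of 4 to 19, 21 a highest count of 1 to 3, and 26 had no count at all. Just inside the limit of 20 counts were Scn11a (20, 0 and 7 counts) and Kcnk2 (20, 19 and 7), and just outside it were Kcnj11 (0, 17 and 2) and Cacna1b (8, 17 and 7). Values in series of 3 follow the order MICFs, GMTMS-iCMs, library labelled GMTMM. Folds are ratios of the deposited FPKM, given for pairs in which 1 library had at least 20 counts, with 95% Clopper-Pearson intervals on the counts. These intervals cover counting error only. A library with 0 counts allows up to 3, which is 0.253, 0.282 and 0.252 CPM (counts scaled by the library total), and a fold against it was computed with 3 counts and is written as a bound. Such a bound takes the other count as exact, so the limit of the counting interval lies closer to no change than the bound.

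A large share of the channel genes lay more than 2-fold apart between conditions. In GMTMS-iCMs 19 of 58 measured members were over 2-fold higher than in MICFs, against 14.8% of all genes with the same minimum, and 25 were over 2-fold lower, against 19.3%. In the library labelled GMTMM 18 of 58 were higher than in MICFs, against 12.8% of all genes, and 11 were lower, against 9.87%. Between the transduced libraries 17 of 56 were higher in GMTMS-iCMs, against 11.1%, and 22 were lower, against 18.1%. Both comparisons with MICFs use the same MICF library, so their values stand side by side and are not independent.

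The channel genes are weakly expressed, so shares were also taken among genes whose highest count in the pair was at least 20 and under 200. For GMTMS-iCMs against MICFs they were 35.1% higher and 45.9% lower for 37 members, and 15.5% and 28.8% for all genes. For the library labelled GMTMM against MICFs they were 35.9% and 20.5% for 39 members, and 16.5% and 17.8% for all genes. The lower share of members in that pair was thus near the share of all genes at such counts. With 200 or more counts it was 15.8% of 19 members, against 5.22%. Between the transduced libraries the shares under 200 were 30.6% and 36.1% for 36 members, and 11.6% and 22.7% for all genes. The median log2 ratio of the measured members was -0.51 for GMTMS-iCMs over MICFs, 0.24 for the library labelled GMTMM over MICFs and -0.30 between the transduced libraries, while the medians of all genes were -0.04, 0.01 and 0.02. The sign of both negative medians depends on the count minimum, since with at least 10 counts they were 0.11 and 0.34. On the scale of the study's methods, quantile-normalized log2 (FPKM + 1), a difference over 1 was met by 11 higher and 12 lower members in GMTMS-iCMs over MICFs, against 9.57% and 9.66% of all genes. It was met by 4 and 2 in the library labelled GMTMM over MICFs, against 6.8% and 3.74%, and by 8 and 11 between the transduced libraries, against 6.55% and 10.3%. The pseudocount of 1 shrinks differences of genes below 1 FPKM, and 21, 23 and 20 calls by ratio were not met on this scale, in the same order of comparisons. The calls not met included Cacna2d2, Cacna1h, Kcnd3, Kcnh4, Kcnc1, Kcnq1 and Scn3a in GMTMS-iCMs over MICFs. They included Cacna2d2, Kcnc4, Kcnn3, Kcng1 and Kcnk3 in the library labelled GMTMM over MICFs. Between the transduced libraries they included Kcnc1, Kcnn3 and Kcne3. Most of these calls are not marked again where the folds are given. When the whole counting interval had to pass 2-fold, 17 higher and 24 lower members were counted in GMTMS-iCMs over MICFs, against 11.3% and 12.1% of all genes. The counts were 14 and 4 in the library labelled GMTMM over MICFs, against 8.85% and 3.72%, and 6 and 18 between the transduced libraries, against 6.12% and 12.8%.

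**Figure D2:**
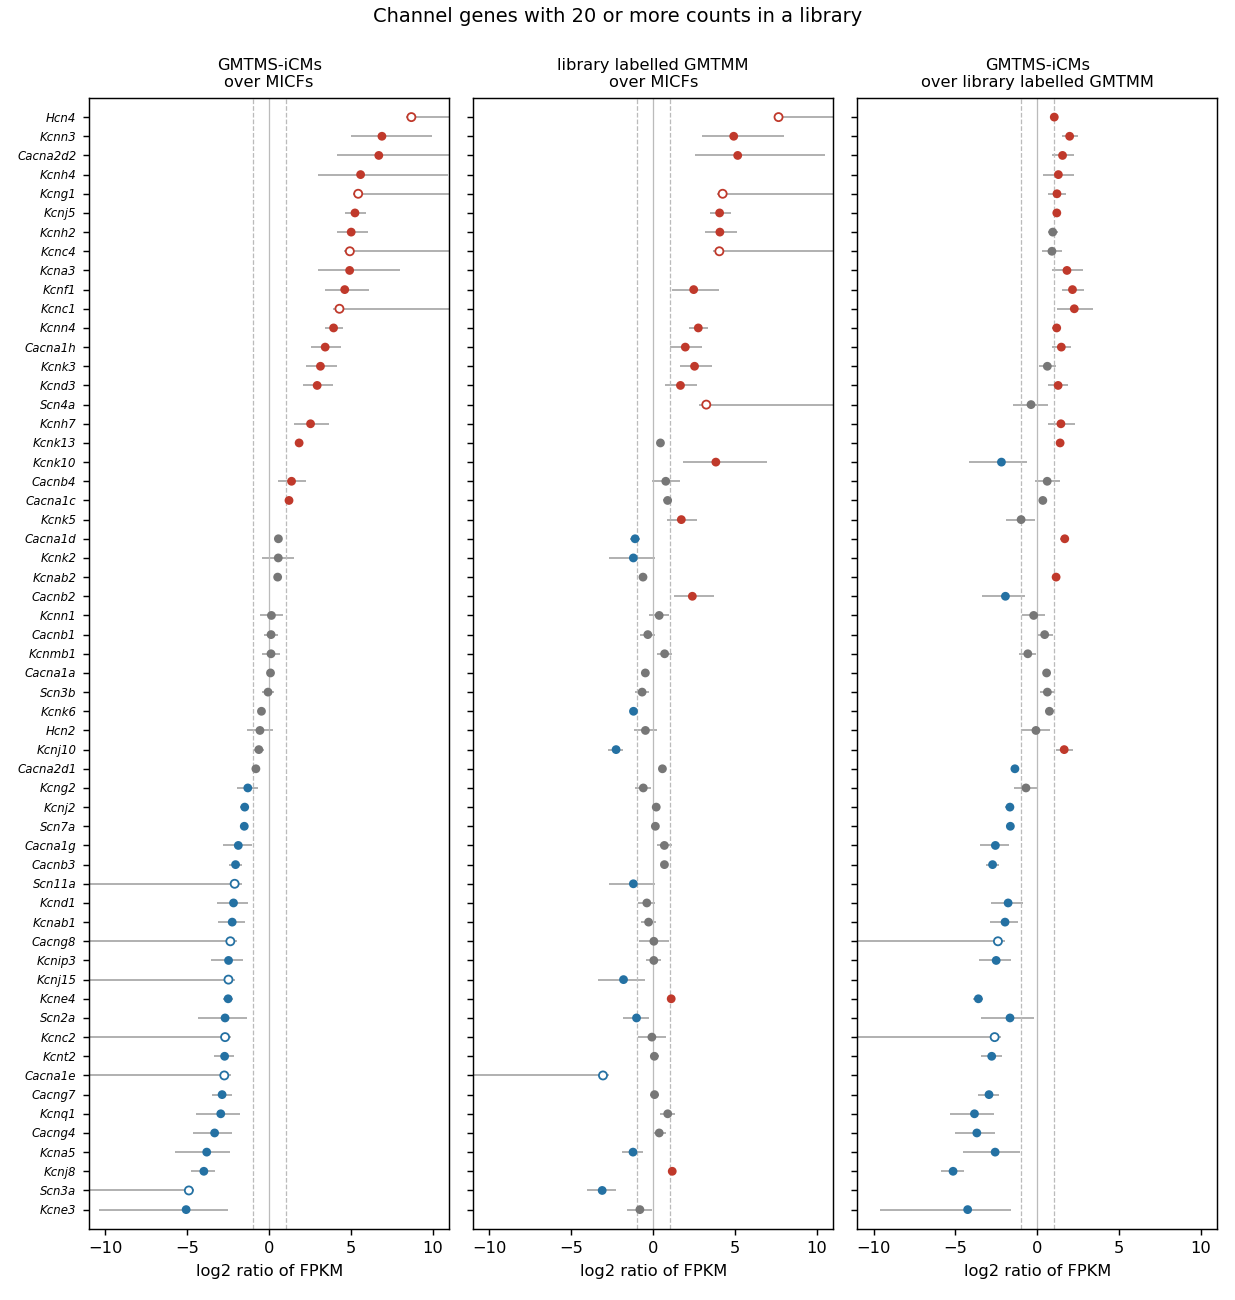
Log2 ratio of FPKM for reported channel genes with 20 or more counts in a library, ordered by the first panel, with bars for 95% counting intervals (cut at the axis limits) and dashed lines at 2-fold. Red points are over 2-fold higher, blue over 2-fold lower and grey between, open points have a library with 0 counts, and a gene without a point in a panel had under 20 counts in both libraries. Hcn4 stands at the top of the first panel, with 0 counts in MICFs and 798 in GMTMS-iCMs, and Kcne3 at the bottom.

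Hcn4, the main HCN pore subunit of the sinoatrial node, was counted in the transduced libraries and not in MICFs. This gene (ENSMUSG00000032338, chromosome 9 from 58823412 to 58863175, GRCm38) had 0, 798 and 490 counts, or 0, 14.0 and 6.86 FPKM. It was at least 412-fold higher in GMTMS-iCMs than in MICFs and at least 201-fold higher in the library labelled GMTMM. The lower limits of the counting intervals were 334 and 163. Between the transduced libraries the ratio was 2.05 (1.83 to 2.30), which passed 2-fold on the FPKM scale and on none of the alternatives (1.82 with CPM on library totals, 1.97 with TMM, and a log2 difference of 0.92 on the quantile-normalized scale). Hcn2, a ventricular and neuronal HCN subunit, had 48, 21 and 28 counts and 1.04, 0.708 and 0.750 FPKM, and its intervals included no change (1.48-fold lower in GMTMS-iCMs, 0.867 to 2.59, with a ratio of 0.488 by CPM). Hcn3 had 7, 3 and 3 counts.

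The upstream sequences of Hcn4, Kcnj5 and Kcnj8 are shown because these genes had the largest differences among the heart channels with over 10 FPKM in some library, in opposite directions. Tbx5, a delivered factor, binds T-box sequences, for which AGGTGT was searched on both strands in the 250 bases before each start (the start excluded), along with the letters AGATAA for Gata4-type factors, the MEF2 site and the CArG box of SRF, the partner of Myocd. The sequences are from RefSeq on GRCm38.p6, written 5′ to 3′ along the gene, and capitals mark AGGTGT or its reverse complement. For Hcn4 and Kcnj5 the start used for this stretch differs from the gene start in the coordinates printed here. Hcn4 (chr9:58822699-58822948, plus strand) and Kcnj8 (chr6:142571615-142571864, minus strand) each hold a single match, and Kcnj5 (chr9:32344345-32344594, minus strand) holds none of the motifs searched. The same stretches of Cacna2d2, Kcnc4, Kcne4, Kcnh2 and Kcnn3, not shown, also hold none of them.
Hcn4: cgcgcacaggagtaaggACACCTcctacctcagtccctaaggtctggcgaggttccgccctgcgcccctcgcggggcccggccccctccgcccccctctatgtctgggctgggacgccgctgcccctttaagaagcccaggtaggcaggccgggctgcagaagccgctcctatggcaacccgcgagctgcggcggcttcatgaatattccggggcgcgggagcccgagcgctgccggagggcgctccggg
Kcnj5: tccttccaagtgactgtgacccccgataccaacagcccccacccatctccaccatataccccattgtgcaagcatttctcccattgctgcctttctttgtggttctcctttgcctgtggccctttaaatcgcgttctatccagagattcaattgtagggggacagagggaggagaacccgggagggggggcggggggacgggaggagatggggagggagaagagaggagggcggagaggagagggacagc
Kcnj8: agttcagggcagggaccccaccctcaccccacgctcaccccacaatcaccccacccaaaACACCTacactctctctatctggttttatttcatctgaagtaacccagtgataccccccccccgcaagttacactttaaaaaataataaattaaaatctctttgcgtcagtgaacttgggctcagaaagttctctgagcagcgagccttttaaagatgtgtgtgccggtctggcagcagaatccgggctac
Upstream sequence was found for 101 of the 138 members. AGGTGT was present for 18 of the 101 (17.8%), and for 13.6% of 27025 genes with such a sequence. The other shares were 3.96% and 11.4% for AGATAA, 0.990% and 0.592% for the MEF2 site, and 0% and 1.62% for the CArG box, members first. Hcn4, which was higher in the transduced libraries, and Kcnj8, which was lower in GMTMS-iCMs, both carry the T-box letters, and such a match is a description of letters only.

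Among the inward rectifiers, which hold the resting voltage, Kcnj5 and Kcnj8 lay at opposite ends. Kcnj5 (ENSMUSG00000032034, chromosome 9 from 32314707 to 32344350) encodes a pore subunit of the acetylcholine-activated potassium channel of atrial and nodal cells. Its counts were 23, 562 and 310, or 0.341, 12.9 and 5.66 FPKM, which was 37.9-fold higher in GMTMS-iCMs than in MICFs (25.0 to 60.2) and 16.6-fold higher in the library labelled GMTMM (10.9 to 26.6). Kcnj3, the partner of Kcnj5 in this channel, had only 0, 5 and 0 counts. The acetylcholine-activated channel was therefore measured almost wholly through 1 of its subunit genes. Kcnj8 (ENSMUSG00000030247, chromosome 6 from 142564837 to 142571614) encodes a pore subunit of ATP-sensitive potassium channels of vascular and mural cells. With 442, 18 and 802 counts, or 12.1, 0.761 and 26.9 FPKM, it was 15.8-fold lower in GMTMS-iCMs than in MICFs (9.91 to 27.0) and 2.24-fold higher in the library labelled GMTMM (1.99 to 2.52). This last ratio did not pass 2-fold with CPM (1.81) or on the quantile-normalized scale (log2 0.89). The gap between the transduced libraries, 35.4-fold (22.3 to 60.1), was the widest of any measured member between them. Kcnj11, the heart muscle counterpart of Kcnj8, had 0, 17 and 2 counts and so lay under the minimum.

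Kcnj2, the main subunit of the inward rectifier current of ventricular muscle, had 627, 144 and 578 counts and 8.00, 2.85 and 9.09 FPKM. It was 2.81-fold lower in GMTMS-iCMs than in MICFs (2.34 to 3.39). Its relatives of the same current, Kcnj12 (0, 14 and 1 counts) and Kcnj4 (7, 1 and 4), stayed under 20. Kcnj10, best known from glia, had 285, 119 and 48 counts and was 4.82-fold lower than MICFs in the library labelled GMTMM (3.54 to 6.69). In GMTMS-iCMs it was 1.55-fold lower (1.24 to 1.93), and past 2-fold with CPM (a ratio of 0.466). Kcnj15 had 26, 0 and 6 counts, at least 5.59-fold lower in GMTMS-iCMs.

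The voltage-gated potassium channel pore subunits were divided. Of 16 measured in GMTMS-iCMs against MICFs, 9 were over 2-fold higher and 6 lower, against 14.8% and 19.3% of all genes. In the library labelled GMTMM 5 of 12 were higher and 1 lower, against 12.8% and 9.87% of all genes. Kcnh2 (ENSMUSG00000038319, chromosome 5 from 24319589 to 24351604) carries the rapid delayed rectifier current that ends the action potential. It had 11, 229 and 150 counts, or 0.158, 5.09 and 2.65 FPKM, and was 32.3-fold higher in GMTMS-iCMs (17.7 to 65.5) and 16.8-fold higher in the library labelled GMTMM (9.12 to 34.4). The ratio of both transduced libraries, 1.92 (1.56 to 2.37), did not pass 2-fold.

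Kcnc4 (ENSMUSG00000027895, chromosome 3 from 107438303 to 107459552), a fast inactivating channel of the Shaw family, had 0, 59 and 40 counts and 0, 1.73 and 0.934 FPKM. It was at least 30.5-fold and at least 16.4-fold higher than in MICFs, GMTMS-iCMs first, and its family member Kcnc1 (0, 38 and 10 counts) was at least 19.6-fold higher in GMTMS-iCMs. Kcnc2, of the same family, went the other way with 30, 0 and 23 counts, at least 6.45-fold lower in GMTMS-iCMs. The silent subunits, which conduct only together with other pore subunits, included Kcng1 (0, 84 and 46 counts) and Kcnf1 (6, 95 and 27). Kcng1 was at least 43.4-fold and at least 18.9-fold higher than in MICFs, and Kcnf1 24.5-fold (10.9 to 68.5) and 5.54-fold (2.24 to 16.4). Kcng2, also silent, had 107, 28 and 57 counts and was 2.47-fold lower in GMTMS-iCMs (1.61 to 3.89).

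Kcnd3, a pore subunit of the transient outward current of early repolarization, had 14, 69 and 36 counts and was 7.64-fold higher in GMTMS-iCMs (4.26 to 14.7) and 3.17-fold higher in the library labelled GMTMM (1.67 to 6.36). The other transient outward genes were near or at 0. Kcnd2 had no count, Kcna4 had 0, 0 and 1, and the auxiliary subunit Kcnip2 had 0, 8 and 7. Kcna3, a channel known from lymphocytes and macrophages, had 2, 39 and 14 counts and was 30.2-fold higher in GMTMS-iCMs (7.82 to 258). Kcnh4 (1, 31 and 16 counts) and Kcnh7 (11, 41 and 19), relatives of Kcnh2, were 48.0-fold (8.00 to 1957) and 5.77-fold (2.91 to 12.5) higher in GMTMS-iCMs.

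Several voltage-gated genes were lower in GMTMS-iCMs. Kcnq1, the pore of the slow delayed rectifier, had 72, 6 and 108 counts and was 7.75-fold lower in GMTMS-iCMs than in MICFs (3.39 to 21.8) and 1.85-fold higher in the library labelled GMTMM (1.36 to 2.53). Its heart partner Kcne1 had no count. Kcna5, the pore of the ultrarapid atrial current, had 87, 4 and 30 counts and was lower in both transduced libraries, 14.0-fold (5.29 to 52.7) and 2.35-fold (1.54 to 3.69). Kcnd1 had 84, 12 and 52 counts, 4.52-fold lower in GMTMS-iCMs (2.46 to 9.09).

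Auxiliary subunits of voltage-gated potassium channels were mostly lower in GMTMS-iCMs. Of 5 measured genes 4 were over 2-fold lower than in MICFs, against 19.3% of all genes, and none was over 2-fold higher. Kcne4, which restrains Kcnq1 and other pores, was among the most abundant members, with 844, 96 and 1466 counts and 22.1, 3.89 and 47.2 FPKM. It was 5.67-fold lower in GMTMS-iCMs than in MICFs (4.59 to 7.08) and 2.14-fold higher in the library labelled GMTMM (1.96 to 2.33), where the ratio did not pass 2-fold with CPM (1.73) or on the quantile-normalized scale (log2 0.73). Kcne3 had 52, 1 and 24 counts, 33.6-fold lower in GMTMS-iCMs (5.76 to 1351). Kcnip3 (95, 11 and 79 counts) and Kcnab1 (111, 15 and 74) were 5.57-fold (2.98 to 11.5) and 4.78-fold lower (2.77 to 8.82). Kcnab2, a beta subunit with high levels in blood cells, had 570, 528 and 300 counts and 7.10, 10.2 and 4.60 FPKM and stayed within 2-fold of MICFs in both.

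Kcnj8, Kcne4 and Kcnq1 shared an order, lowest in GMTMS-iCMs, with no lower ratio to MICFs for the library labelled GMTMM. The fibroblast and endothelial sums were also lowest in GMTMS-iCMs (263 and 13.8 FPKM). Of 8 smooth muscle and mural markers 4 were over 2-fold lower there than in MICFs, among them Rgs5 at 16.1, 3.17 and 66.3 FPKM. The 2 that were over 2-fold higher were Myh11 (17.1, 70.1 and 51.0 FPKM) and Cnn1 (5.41, 15.8 and 13.0 FPKM). The part of these cell types in the channel values was not tested.

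Tandem-pore (K2P) channels, which carry background potassium current, made up 20.7, 44.0 and 19.7 FPKM in all. Kcnk13, a channel known from microglia, was the largest part in both transduced libraries, and Kcnk6 in MICFs (10.2 FPKM). Kcnk13 had 414, 951 and 456 counts and 9.25, 32.9 and 12.5 FPKM, and was 3.56-fold higher in GMTMS-iCMs than in MICFs (3.17 to 4.00) and 1.36-fold higher in the library labelled GMTMM (1.19 to 1.55). Kcnk6, a relative with weak inward rectification, went the other way, with 611, 285 and 215 counts, 2.31-fold lower in the library labelled GMTMM (1.97 to 2.71) and 1.38-fold lower in GMTMS-iCMs (1.20 to 1.60). Kcnk3, a background channel of heart muscle, had 12, 68 and 56 counts and was 8.78-fold (4.71 to 17.8) and 5.75-fold (3.05 to 11.8) higher. Kcnk10 (2, 4 and 23 counts) and Kcnk5 (15, 16 and 40) were over 2-fold higher in the library labelled GMTMM, by 14.2-fold (3.50 to 124) and 3.28-fold (1.78 to 6.40). Kcnk2, with 20, 19 and 7 counts, was 2.32-fold lower there (0.942 to 6.49), an interval that included no change.

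Among the calcium- and sodium-activated channels, Kcnn3 and Kcnn4 were higher in both transduced libraries. Kcnn3, a small-conductance calcium-activated channel found in atrial muscle, had 2, 153 and 49 counts, 119-fold (32.3 to 987) and 30.2-fold (7.92 to 256) higher than in MICFs. Kcnn4, the intermediate-conductance channel of blood cells and activated macrophages, had 32, 316 and 175 counts and 0.435, 6.65 and 2.93 FPKM, 15.3-fold (10.6 to 22.8) and 6.74-fold (4.60 to 10.2) higher. The 10 macrophage markers had a median log2 ratio to MICFs of 1.22 in GMTMS-iCMs, against -0.07 in the library labelled GMTMM, and their part in the values of Kcnk13, Kcnn4 and Kcna3 was not tested. Kcnt2, a sodium-activated channel, had 255, 25 and 217 counts, 6.58-fold lower in GMTMS-iCMs (4.36 to 10.4). Kcnn1 (45, 32 and 47 counts) and the BK beta subunit Kcnmb1 (73, 51 and 96) stayed within 2-fold, and Kcnma1, the BK pore of smooth muscle, had 0, 12 and 6 counts.

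All 5 sodium channel pore subunits measured in GMTMS-iCMs against MICFs were over 2-fold lower, against 19.3% of all genes. Scn3a, a sodium channel of embryonic neurons, had 139, 0 and 13 counts. It was at least 29.9-fold lower in GMTMS-iCMs and 8.68-fold lower in the library labelled GMTMM (4.91 to 16.7). Scn2a (50, 5 and 20 counts) and Scn11a (20, 0 and 7), both neuronal, were 6.45-fold (2.59 to 20.7) and at least 4.30-fold lower in GMTMS-iCMs. Scn7a, a sodium-sensing relative, was the most abundant of the class at 8.57, 2.99 and 9.38 FPKM, with 905, 204 and 804 counts, 2.86-fold lower in GMTMS-iCMs (2.46 to 3.35). Scn4a, the skeletal muscle channel, had 0, 14 and 23 counts, at least 9.44-fold higher in the library labelled GMTMM. Between MICFs and GMTMS-iCMs it lay under the minimum, so no fold is given for that pair.

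Scn3b, a beta subunit that modulates sodium channel gating, had 146, 90 and 74 counts and stayed within 2-fold in each comparison. The beta subunits Scn2b (2, 1 and 1 counts) and Scn4b (1, 0 and 3) were barely counted.

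Calcium channel pores differed by type. Cacna1c, the L-type pore of heart muscle, had 203, 304 and 303 counts, or 0.666, 1.54 and 1.22 FPKM. It was 2.32-fold higher in GMTMS-iCMs (1.94 to 2.78) and 1.84-fold higher in the library labelled GMTMM (1.53 to 2.21), and its 2-fold call in GMTMS-iCMs was lost with CPM on library totals (1.67-fold) and on the quantile-normalized scale (log2 0.71). Cacna1d, the L-type pore of nodal cells, had 380, 363 and 143 counts, 2.16-fold lower in the library labelled GMTMM (1.78 to 2.63) and 1.48-fold higher in GMTMS-iCMs (1.28 to 1.71). The T-type pores, which open at low voltage and add to pacemaking, lay apart in GMTMS-iCMs. Cacna1h had 13, 90 and 41 counts, 10.7-fold higher in GMTMS-iCMs (5.97 to 20.9) and 3.89-fold higher in the library labelled GMTMM (2.04 to 7.90), whereas Cacna1g had 80, 14 and 104 counts, 3.69-fold lower in GMTMS-iCMs (2.08 to 7.05) and 1.60-fold higher in the library labelled GMTMM (1.19 to 2.17). Cacna1a, a neuronal pore, had 554, 379 and 322 counts and stayed within 2-fold. Cacna1e, a neuronal R-type pore, had 31, 0 and 0 counts, at least 6.67-fold and at least 8.39-fold lower.

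The auxiliary calcium channel subunits differed as well. Cacna2d2, an alpha2delta subunit, had 1, 67 and 29 counts, 104-fold (18.0 to 4160) and 35.7-fold (5.92 to 1459) higher than in MICFs. Cacna2d1, the alpha2delta subunit of heart muscle, had 510, 188 and 611 counts, and was 1.75-fold lower in GMTMS-iCMs (1.48 to 2.08), and with CPM on library totals the ratio was 0.412, past 2-fold. Cacnb2, the main beta subunit of the heart L-type channel, had 8, 7 and 34 counts, 5.24-fold higher in the library labelled GMTMM (2.38 to 13.1). Cacnb3 was the most abundant calcium channel subunit in the library labelled GMTMM, with 430, 67 and 561 counts and 7.45, 1.80 and 12.0 FPKM, and was 4.14-fold lower in GMTMS-iCMs than in MICFs (3.20 to 5.44). Cacnb4 (21, 35 and 29 counts) was 2.58-fold higher in GMTMS-iCMs (1.46 to 4.67), but not past 2-fold with CPM (1.86) or on the quantile-normalized scale (log2 0.33). Cacnb1 (110, 77 and 71) stayed within 2-fold. The 3 measured gamma subunits were Cacng7 (295, 26 and 253 counts), Cacng4 (109, 7 and 114) and Cacng8 (24, 0 and 20), which also act as glutamate receptor partners. All 3 were over 2-fold lower in GMTMS-iCMs than in MICFs, against 19.3% of all genes. They were lower by 7.32-fold (4.90 to 11.4), 10.1-fold (4.72 to 25.6) and at least 5.16-fold. In the library labelled GMTMM these genes had ratios to MICFs of 1.06, 1.29 and 1.03, all with intervals that included 1.

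**Figure D3:**
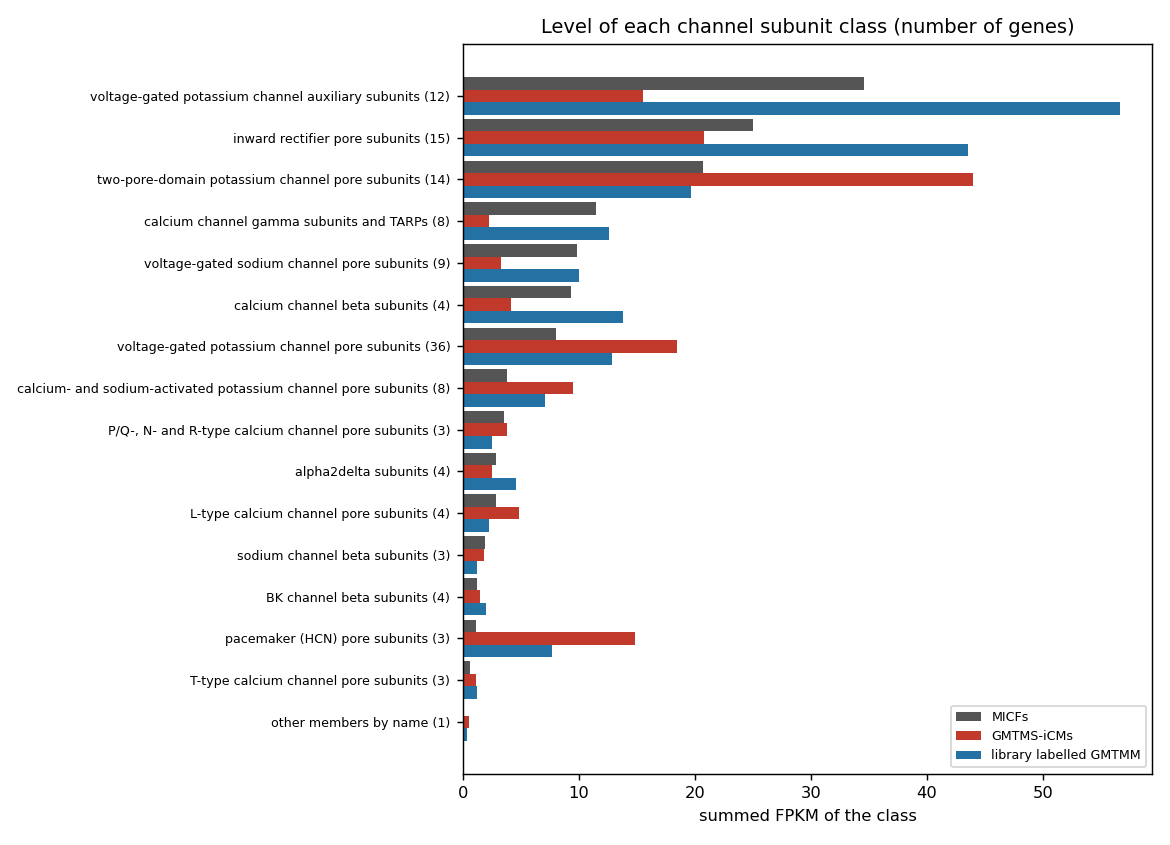
Summed FPKM of the reported genes of each class of channel subunit (bars from 0) with grey for MICFs, red for GMTMS-iCMs and blue for the library labelled GMTMM, with the number of genes summed in parentheses. HCN pores sum to 1.16, 14.8 and 7.67 FPKM, tandem-pore channels are highest in GMTMS-iCMs, and potassium channel auxiliary subunits are highest in the library labelled GMTMM at 56.6 FPKM.

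By level per length, Kcne4, Kcnj8, Kcnk6 and Kcnk13 were among the highest members in MICFs, at 22.1, 12.1, 10.2 and 9.25 FPKM. In GMTMS-iCMs Kcnk13, Hcn4, Kcnj5 and Kcnab2 were among the highest, at 32.9, 14.0, 12.9 and 10.2 FPKM. In the library labelled GMTMM these places were taken by Kcne4, Kcnj8, Kcnk13 and Cacnb3, at 47.2, 26.9, 12.5 and 12.0 FPKM. A level of at least 1 FPKM was reached by 27, 28 and 29 members.

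A list of 35 genes of the heart action potential, ordered by current, was compared as a set. In GMTMS-iCMs against MICFs 21 were measured, 8 were over 2-fold higher (Cacna1c, Hcn4, Cacna1h, Kcnd3, Kcnh2, Kcnj5, Kcnk3 and Kcnn3) and 6 were lower (among them Cacna1g, Kcnq1, Kcna5, Kcnj2 and Kcnj8), with a median log2 ratio of -0.07. Over all genes 14.8% were higher and 19.3% lower in this pair, with a median of -0.04. In the library labelled GMTMM 9 of 22 were higher and 4 lower, with a median of 0.78 (all genes 12.8%, 9.87% and 0.01). Between the transduced libraries 6 of 20 were higher in GMTMS-iCMs and 7 lower, with a median of 0.13 (all genes 11.1%, 18.1% and 0.02). Of the 35 genes, Kcnd2, Kcne1, Kcne2 and Kcnn2 had no count in any library, so they were not detectable at this depth.

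**Figure D4:**
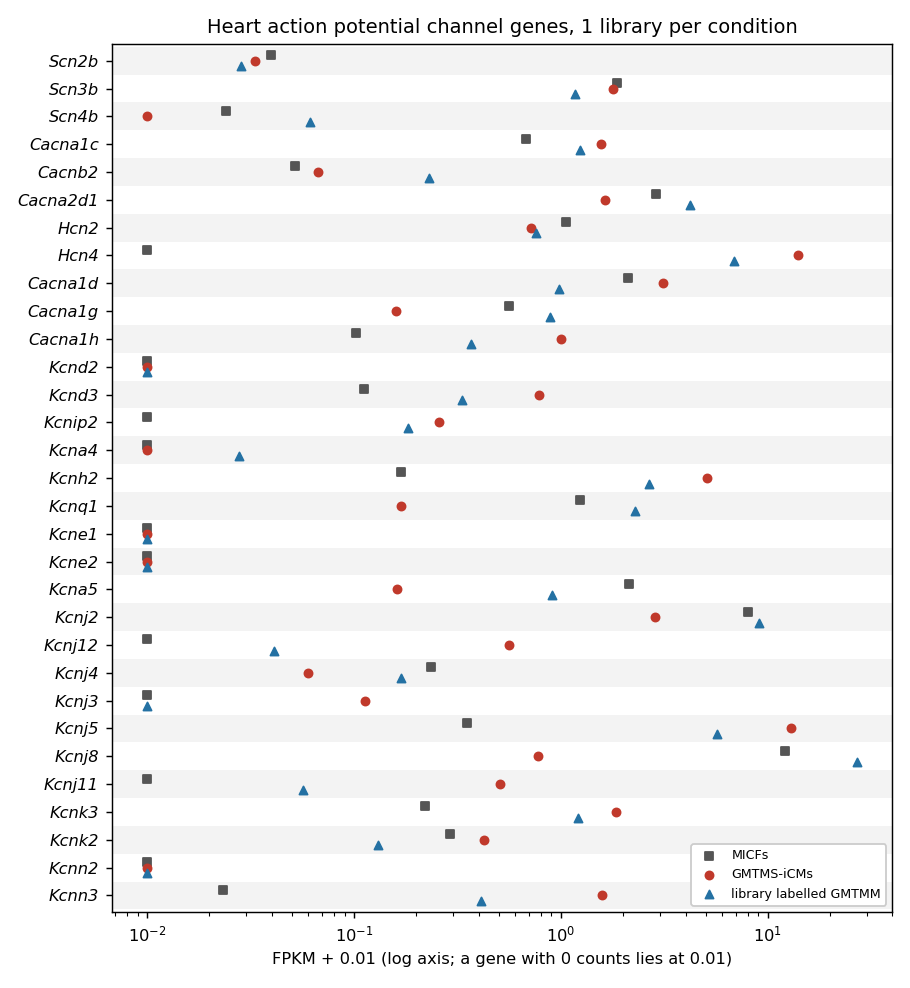
FPKM + 0.01 (log axis) of heart action potential genes with squares for MICFs, circles for GMTMS-iCMs and triangles for the library labelled GMTMM, in the order of sodium, calcium and pacemaker, and potassium currents. Hcn4, Kcnh2, Kcnj5 and Kcnn3 lie to the right in both transduced libraries, and Kcnj8 lies far to the left in GMTMS-iCMs alone, at 0.761 FPKM.

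The transduced libraries differed from each other in many channels. The largest ratios in favour of GMTMS-iCMs were Kcnc1 (4.78-fold, 2.34 to 10.8), Kcnf1 (4.43-fold, 2.86 to 7.06), Kcnn3 (3.93-fold, 2.83 to 5.53) and Kcna3 (3.50-fold, 1.86 to 6.99). Kcnj5 was 2.28-fold higher in GMTMS-iCMs (1.98 to 2.63), Cacna1d 3.19-fold (2.62 to 3.90), Kcnj10 3.12-fold (2.21 to 4.46), Kcnk13 2.62-fold (2.34 to 2.94) and Kcnab2 2.21-fold (1.92 to 2.56), the last not past 2-fold with CPM (1.97). Among the lowest ratios after Kcnj8 were those of Kcne3 (19.1-fold lower, 3.11 to 785), Kcnq1 (14.3-fold, 6.37 to 39.9), Cacng4 (12.9-fold, 6.09 to 32.9) and Kcne4 (12.1-fold, 9.87 to 15.1). Of 10 cardiomyocyte markers 8 were over 2-fold higher in GMTMS-iCMs than in the library labelled GMTMM, 9 of 10 macrophage markers were higher, and all 10 fibroblast and all 8 endothelial markers were lower. Their part in the channel differences was not tested.

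Of 27 genes whose products bind or regulate these channels, 5 of 15 measured were over 2-fold higher in GMTMS-iCMs than in MICFs and 2 were lower, against 14.8% and 19.3% of all genes, with a median log2 ratio of 0.14. In the library labelled GMTMM 7 of 16 were higher and none lower, against 12.8% and 9.87%, with a median of 0.42. Rrad and Gem, inhibitors of L-type channels of the RGK family, had 58, 904 and 667 and 154, 650 and 4008 counts, and Rrad was 24.1-fold higher in GMTMS-iCMs (18.5 to 32.1) and Gem 32.1-fold higher in the library labelled GMTMM (27.3 to 37.9). Rem1, of the same family, had 211, 8 and 108 counts, 17.0-fold lower in GMTMS-iCMs (8.48 to 39.9). Abcc9, the sulfonylurea receptor that pairs with Kcnj8, had 1085, 53 and 1534 counts, 13.2-fold lower in GMTMS-iCMs (10.0 to 17.8) and 1.74-fold higher in the library labelled GMTMM (1.61 to 1.88), the same order as Kcnj8. Abcc8, the other receptor, had 0, 16 and 3 counts. Ank3, a scaffold of sodium channels, had 17, 161 and 41 counts, 14.7-fold higher in GMTMS-iCMs (8.88 to 25.8), and Ank2 had 238, 81 and 517 counts, 1.90-fold lower there (1.47 to 2.47). The adaptors Stac2 (27, 50 and 59 counts) and Stac3 (19, 26 and 104) were 2.87-fold and 2.12-fold higher in GMTMS-iCMs. Dpp6, a partner of the transient outward channel, had 2, 1 and 30 counts. Calm2, Calm3, Fgf11, Akap9 and Cav3 stayed within 2-fold in each comparison, and 10 further partners had under 20 counts everywhere. Calm3 was near the threshold, 1.95-fold lower in GMTMS-iCMs than in MICFs (1.80 to 2.10). With CPM on library totals, Calm3 and Ank2 were both over 2-fold lower in that pair.

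Members under the minimum carry little information. Those without a count were Cacna1i, Cacna2d3, Cacng2, Cacng3, Kcna10, Kcnd2, Kcne1, Kcne2, Kcnh5, Kcnh6, Kcnh8, Kcnip1, Kcnj6, Kcnk9, Kcnk12, Kcnk15, Kcnk16, Kcnk18, Kcnmb2, Kcnmb4, Kcnn2, Kcnq3, Kcns2, Kcnv1, Scn1a and Scn9a. The genes with a highest count of 1 to 3 included Cacna1s, Cacna2d4, Cacng5, Kcna1, Kcna4, Kcna7, Kcnb2, Kcng4, Kcnh3, Kcnj1, Kcnj13, Kcnk1, Kcnk4, Kcnmb3, Kcns3, Kcnu1, Scn2b, Scn4b and Scn10a, which is within the limit that a count of 0 allows. The genes with 4 to 19 counts included Cacna1b, Cacna1f, Cacng1, Cacng6, Hcn3, Kcna2, Kcna6, Kcnab3, Kcne1l, Kcng3, Kcnh1, Kcnip2, Kcnip4, Kcnj3, Kcnj4, Kcnj9, Kcnj11, Kcnj12, Kcnj14, Kcnj16, Kcnk7, Kcnma1, Kcnq5, Kcnrg, Kcns1, Kcnt1, Kcnv2 and Scn8a. Among the members with 20 or more counts, exon bases shared with exons of another gene reached 16.0% for Cacnb4, 12.2% for Kcnk2 and 9.10% for Kcng2, so the counts of these genes are uncertain.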

How the data were processed

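RNA was sequenced from 3 libraries, 1 per condition. The authors deposited raw counts per gene and FPKM for 54532 genes. The submitters' processing notes name HISAT2 2.0.5 and the mm9 build, while 98.2% of the genes carry the coordinates of GENCODE M21 on GRCm38. The counting tool and its use of strand are not given in the sources used here. The FPKM that the authors deposited equal counts divided by gene length and by effective library sizes of 14389264 (MICFs), 9287868 (GMTMS-iCMs) and 11680913 (library labelled GMTMM), not by the totals. The MICF column carries another abbreviation and was matched because both other columns name the cocktails.

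Ratios of FPKM, 95% Clopper-Pearson intervals, a minimum of 20 counts in a library of the pair and a threshold of 2-fold were used, and the ratio step was tested on simulated data. The study's quantile-normalized scale was an alternative, because most channels lie below its pseudocount of 1. Other alternatives were CPM, TMM from edgeR 4.0.16, minimums of 10, 50 or over 3 counts, 4-fold, and whole intervals. The genes named were Kcnj5, Kcnc4, the heart list, the 10 highest by FPKM, the 10 highest and 10 lowest ratios per comparison, and partners with 20 or more counts. Further members are named where described, and some members and partners are included in counts and medians but not reported here by name. Members and lists were chosen with earlier results of these data known. Python 3.11.15, SciPy 1.17.1, pandas 2.3.3, numpy 2.4.6, matplotlib 3.10.9 and R 4.3.3 were used.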

Additional observations from a re-analysis of the deposited data

Results flagged for a closer look

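In 7 members the transduced libraries lay on opposite sides of MICFs, with a ratio past 2-fold in one and a counting interval on the other side of 1 in the other. The difference was not tested across replicates, since each condition had 1 library. The ratios to MICFs, GMTMS-iCMs first and the library labelled GMTMM second, were 1.48 and 0.464 for Cacna1d, 0.271 and 1.60 for Cacna1g, 0.241 and 1.61 for Cacnb3, 0.356 and 1.14 for Kcnj2, 0.0631 and 2.24 for Kcnj8, 0.176 and 2.14 for Kcne4, and 0.129 and 1.85 for Kcnq1. With CPM on library totals the ratio of Kcnj2 in the library labelled GMTMM was 0.919 and so no longer opposite, and that of Cacna1d in GMTMS-iCMs was 1.07. Scaled in this way, the counting interval of Cacna1d in GMTMS-iCMs included no change. The same held for Cacna1g in the library labelled GMTMM (log2 ratio 0.37), so neither gene met the rule with CPM.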

How the results depend on the processing

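No paired analysis was possible because a lone library stood for each condition. Comparison A is GMTMS-iCMs over MICFs, B the library labelled GMTMM over MICFs and C GMTMS-iCMs over that library, with 19, 18 and 17 members higher and 25, 11 and 22 lower in the report. On the quantile-normalized scale 11, 4 and 8 were higher and 12, 2 and 11 lower. With any count above 3 admitted, 39, 31 and 35 were higher (18.7%, 16.7% and 14.8% of all genes), and the medians were 0.56 in A and 0.50 in C, of the other sign than the reported -0.51 and -0.30. With at least 50 counts, 7 were higher and 6 lower in B (11.1% and 8.02% of all genes), and the median of C was 0.45. With a minimum of 10 counts the medians of A and C were 0.11 and 0.34, so their sign depends on the minimum, and with CPM the median of B was -0.06. At 4-fold, 4 were lower in B (2% of all genes) and 2 higher in C (1.36%), and with whole intervals past 2-fold 4 were lower in B and 6 higher in C. CPM on library totals lowers the log2 ratios by 0.47 in A, 0.31 in B and 0.17 in C, for all genes alike. Of 137 ratios of named genes, 36 moved with CPM, 90 on the quantile-normalized scale and 0 with TMM. No ratio past 2-fold changed sign, while among ratios within 2-fold 7 changed sign with CPM, such as those of Kcnj2, Cacng7, Kcnt2 and Scn7a in B, and 4 on the quantile-normalized scale. Depth limits the members under 20 counts, for which no fold is given.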
